A study of Mus musculus with 8 samples.

Results

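The *Hoxc* cluster of the mouse holds 9 genes that read in the same direction along chromosome 15, in the order *Hoxc13*, *Hoxc12*, *Hoxc11*, *Hoxc10*, *Hoxc9*, *Hoxc8*, *Hoxc6*, *Hoxc5* and *Hoxc4*. They were chosen by position. All H3K9ac peaks between the start of *Hoxc13* and the end of *Hoxc4* in the mm10 genome, chr15:102921103-103036852 (115.8 kb), were examined, together with the promoters of the 9 genes among 21938 protein-coding genes. The peaks that describe the cluster are the same ones on which its choice rested, so their presence and strength are given as a description.

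*Hox* genes encode homeodomain transcription factors, and their order along a cluster follows the order in which they are used along the body axis, with *Hoxc13* at the posterior and *Hoxc4* at the anterior end. In haematopoiesis, *Hox* genes are active in stem and progenitor cells and are shut down as the cells mature, and a persistent *Hoxa* programme is a hallmark of many acute leukaemias. HOX proteins bind DNA together with PBX and MEIS cofactors. H3K9ac, the acetylation of lysine on histone H3, is a mark of active promoters.

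The libraries came from BM cells of *NUP98-HOXD13-tg* C57BL/6 mice, a model of myelodysplastic syndrome in which all groups carry the fusion transgene. The labels and the authors' methods name BM cells, while the title of their ChIP-seq figure names c-kit+ cells. *GFI1-36S* and *GFI1-36N* mice carry a human GFI1 cDNA in the murine locus, the common serine form and the asparagine variant, and *GFI1-KD* mice express GFI1 at a lower level. GFI1 is a zinc finger repressor that recruits histone deacetylases. Mice received vehicle or curcumin, a natural inhibitor of histone acetyltransferases, at 20 mg/kg by weekly injection. Each genotype had 1 vehicle and 1 curcumin library, 6 in all. Differences between libraries therefore cannot be set against a spread between replicates, and no test was made. The age of the mice and the number behind each library are not given in the sources used here. BM is a mixture, and a weaker mark in each cell cannot be told apart from fewer marked cells.

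Fold enrichment below is the ratio of the fragments at a summit, the highest point of a peak, to the local background, as the authors' peak caller wrote it. These values are not normalised between libraries. Each was therefore also ranked from 0 to 100 among the promoter peaks of its own library. A promoter was taken as 1 kb on each side of any TSS of the gene and had a peak when at least 1 bp was shared. The lists held 20354 to 49213 peaks, the fewest in *GFI1-36S* with curcumin. In the *GFI1-36S* pair, list names and sample labels disagree on which library was treated. The *GFI1-36N* lists carry +ki in the vehicle and kiki in the curcumin name, which may stand for different numbers of knock-in alleles and then could not be told apart from the treatment. Groups follow the labels, and values with the treatments exchanged are given beside the results that turn.

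Libraries also differed in marker promoters of blood lineages, whose part in the results was not tested. The *GFI1-36S* curcumin library had a peak at 14 of 14 T-cell, 0 of 12 neutrophil, 2 of 9 erythroid and 1 of 10 progenitor promoters, with *Elane*, *Mpo* and *Kit* all without a peak, and 3 peaks on chromosome Y where the other 5 lists had 0. In the other 5 libraries, the ranges were 4 to 9 T-cell, 7 to 12 neutrophil, 4 to 9 erythroid and 8 to 10 progenitor promoters. Over all coding genes, 44.3% had a promoter peak in *GFI1-36S* curcumin and 50.6% to 53.8% in the other 5 libraries. *GFI1-KD* vehicle had 12 of 12 neutrophil, 9 of 9 erythroid, 9 of 10 progenitor and 3 of 10 B-cell promoters. *GFI1-KD* curcumin had 7 of 12, 4 of 9, 10 of 10 and 1 of 10.

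The DNA under the most closely shared summits is shown first, to place the sites that several libraries had in common. Of the 14 summits in *GFI1-KD* curcumin, 5 lay within 50 bp of a summit in both *GFI1-36N* libraries. The strongest peak, at *Hoxc5*, was not among them, with a range of 739 bp, and *GFI1-36S* vehicle had its summit inside 1 of the 5 windows. The following 100-base windows are centred on them, read from the plus strand of mm10, with the stretch from the first to the last summit in capitals. The first lies in an intron of *Hoxc9* (chr15:102977300-102977399), and its capitals span 62 bases and 4 libraries, *GFI1-36S* curcumin included.
*Hoxc9* intron: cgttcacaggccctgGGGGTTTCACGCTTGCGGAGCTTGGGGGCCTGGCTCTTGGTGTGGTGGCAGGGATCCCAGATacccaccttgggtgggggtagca
The next lies far upstream of the *Hoxc6* start in an exon of a noncoding transcript (chr15:103000697-103000796), with 32 bases between the summits of 4 libraries.
Upstream of *Hoxc6*: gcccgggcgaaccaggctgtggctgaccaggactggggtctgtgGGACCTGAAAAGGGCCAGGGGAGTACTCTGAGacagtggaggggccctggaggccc
Within the *Hoxc6* intron (chr15:103010153-103010252), the summits of 3 libraries fell within 8 bases.
*Hoxc6* intron: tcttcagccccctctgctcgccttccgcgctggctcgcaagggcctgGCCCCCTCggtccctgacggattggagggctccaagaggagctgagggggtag
An intronic site before the second start of *Hoxc4* (chr15:103032737-103032836) had 3 summits within 19 bases.
*Hoxc4* intron: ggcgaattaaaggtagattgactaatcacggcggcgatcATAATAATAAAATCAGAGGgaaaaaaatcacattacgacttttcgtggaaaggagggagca
In the coding exon of *Hoxc4* (chr15:103034943-103035042), the 3 summits fell within 4 bases.
*Hoxc4* exon: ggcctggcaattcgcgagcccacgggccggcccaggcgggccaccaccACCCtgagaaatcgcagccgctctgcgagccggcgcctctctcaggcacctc

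The windows had 40% to 73% G and C and 2 to 10 CpG, against medians of 55% and 2 CpG in the 30784 windows of the same length at all summits of *GFI1-KD* curcumin. The letters TGATTNAT, a HOX-PBX type of motif, and TAAATCAC, a GFI1 type of motif, were searched on both strands. Neither was found in the 5 windows, while they occurred in 0.689% and 0.185% of all windows. Over the whole cluster, TGATTNAT was found 10 times, 6 of them under a peak of at least 1 library, and TAAATCAC was found 1 time, under a peak. The RefSeq promoter table (mm10) holds 1 of the 9 genes, *Hoxc4*, whose promoter of 300 bases had no match to either motif. The share over all 32851 promoters of this length was 3.22% for TGATTNAT and 0.578% for TAAATCAC.

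H3K9ac covered large parts of the anterior *Hoxc* cluster in 4 libraries, little of it in 1 and none of it in another. In *GFI1-36N* mice, 17 peaks covered 33173 bp (28.7%) of the cluster with vehicle and 19 peaks covered 41135 bp (35.5%) with curcumin. In *GFI1-KD* mice, the cluster held no peak with vehicle and 14 peaks over 37178 bp (32.1%) with curcumin. In *GFI1-36S* mice, 11 peaks covered 17312 bp (14.96%) with vehicle and 3 peaks covered 1424 bp (1.23%) with curcumin. The *GFI1-36N* and *GFI1-KD* curcumin libraries thus had the widest coverage, and *GFI1-KD* vehicle stood at the other end.

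**Figure D1:**
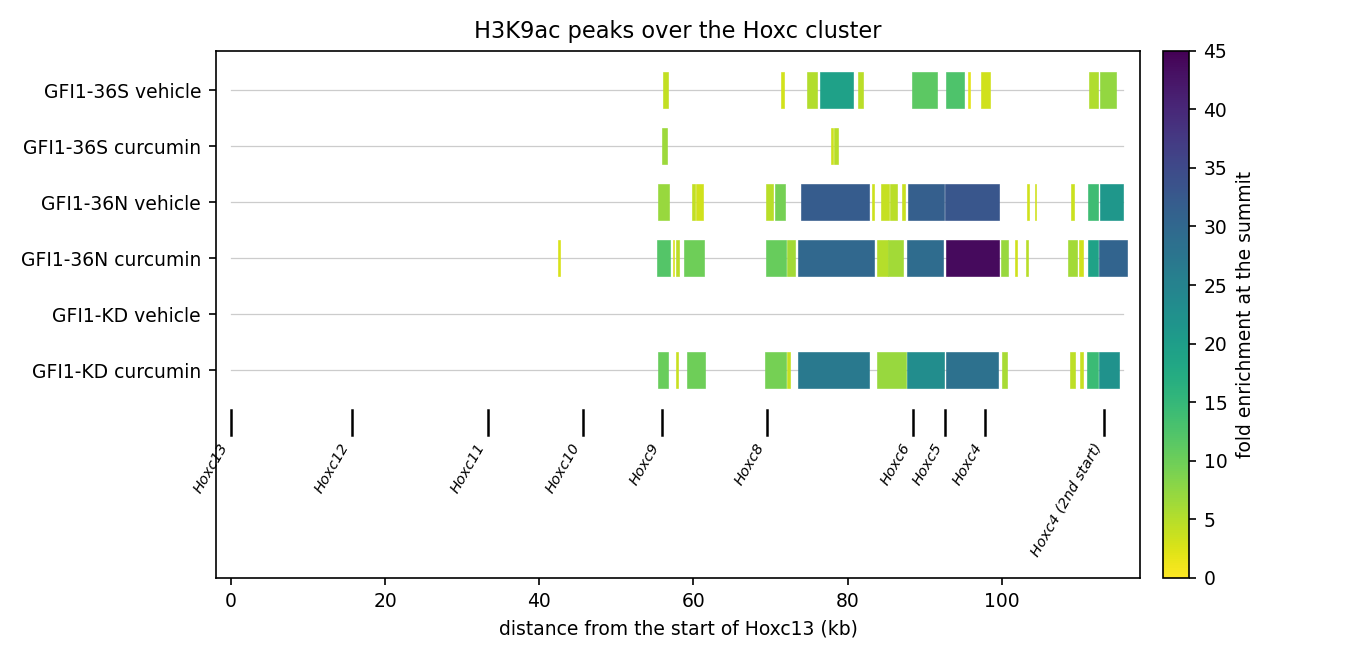
Peaks of each library (rows) along the *Hoxc* cluster, with the distance from the start of *Hoxc13* in kb on the x axis, fold enrichment as colour and the TSS of each gene below. Peaks lay along the stretch from *Hoxc9* to *Hoxc4*, with gaps, in *GFI1-36N* vehicle, *GFI1-36N* curcumin and *GFI1-KD* curcumin, and *GFI1-KD* vehicle had none.

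The peak-free stretch of *GFI1-KD* vehicle ran from chr15:102722199 to chr15:103162812, 440.6 kb between the nearest peaks on either side. Much of it lay outside the cluster. The nearest peaks were 198.9 kb before and 126 kb behind the cluster, against 198.9 and 125.9 kb in *GFI1-36S* vehicle. The distances were 198.9 and 125.8 kb in *GFI1-36S* curcumin and 199 and 65.4 kb in *GFI1-KD* curcumin. In *GFI1-36N*, they were 173.5 and 65.4 kb with vehicle and 181.2 and 1.4 kb with curcumin. MACS2 numbers its peaks in order along the genome. In *GFI1-KD* vehicle, the peaks on either side were number 13707 and 13708, so no called peak had been removed in between. No number was missing over the cluster in the other 5 lists either. The stretch was measured between called peaks, so peaks at promoters beyond its ends are no check on it. Of 6 neighbours, *Calcoco1*, *Smug1*, *Cbx5*, *Hnrnpa1* and *Nfe2* were called at the promoter in every library, and their highest fold enrichment in *GFI1-KD* vehicle was 24.5. *Copz1* could not be assessed because numbers were missing near it in every list.

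Depth is only indirectly given by the lists. A peak summit in *GFI1-KD* vehicle held 17 fragments at the lowest, 21 at the 5th percentile and 34 at the median. In *GFI1-KD* curcumin, the lowest was 15 and the median 36. When scaled to the control, 1 fragment counted 0.840 in *GFI1-KD* vehicle and 0.913 in *GFI1-KD* curcumin. If both lists were called against the same control, which the sources used here do not state, the vehicle library therefore had more fragments. The list shows only that no site of the cluster passed the caller, not that acetylation was absent.

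Called promoter peaks were found at the 5 genes from *Hoxc9* to *Hoxc4* and at none of the posterior ones. *GFI1-36N* vehicle, *GFI1-36N* curcumin and *GFI1-KD* curcumin had a peak at all 5 of them (5 of 9 promoters). *GFI1-36S* vehicle had 4, without *Hoxc8*, *GFI1-36S* curcumin had 1, *Hoxc9*, and *GFI1-KD* vehicle had 0. Among all coding genes, the share with a promoter peak was 51.9% in *GFI1-36S* vehicle, 44.3% in *GFI1-36S* curcumin, 51.7% in *GFI1-36N* vehicle, 53.8% in *GFI1-36N* curcumin, 53.6% in *GFI1-KD* vehicle and 50.6% in *GFI1-KD* curcumin. When every transcript of the full annotation was used, *GFI1-36S* curcumin had a peak at 2 promoters, *Hoxc6* and *Hoxc9*.

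*Hoxc4* and *Hoxc5*, the anterior genes, shared the strongest peak of the cluster in 3 libraries, *GFI1-36N* vehicle, *GFI1-36N* curcumin and *GFI1-KD* curcumin. *Hoxc4* (chr15:103018934-103036852) has 2 annotated starts, at 103018934 and 103034395, and *Hoxc5* starts at 103013815. This peak reached from *Hoxc5* to the first start of *Hoxc4* in *GFI1-36N* vehicle (chr15:103013779-103020707), *GFI1-36N* curcumin (chr15:103013823-103020751) and *GFI1-KD* curcumin (chr15:103013865-103020593). Its fold enrichment was 33.0, 43.8 and 28.4, and its rank among promoter peaks was 96.0, 99.2 and 82.4. Its summits (103015110, 103014371 and 103014391) lay at *Hoxc5*, outside the *Hoxc4* promoter, so that these values count for *Hoxc4* by overlap only. In *GFI1-36N* vehicle, the summit lay 1295 bp behind the *Hoxc5* TSS, so its value counts for *Hoxc5* by overlap only as well. In *GFI1-36S* vehicle, separate peaks had a fold enrichment of 12.5 at *Hoxc5*, 3.17 at the first *Hoxc4* start and 7.27 at the second, and the ranks of *Hoxc5* and *Hoxc4* were 24.8 and 13.1. Neither gene had a peak in *GFI1-36S* curcumin or *GFI1-KD* vehicle. Against all peaks of a list, the *Hoxc5* peak ranked higher, at 78.7 in *GFI1-36S* vehicle, 98.95 in *GFI1-36N* vehicle, 99.8 in *GFI1-36N* curcumin and 94.3 in *GFI1-KD* curcumin.

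At the second *Hoxc4* start, whose summit window is shown above, fold enrichment was 21.3 in *GFI1-36N* vehicle, 30.6 in *GFI1-36N* curcumin and 22.1 in *GFI1-KD* curcumin, against the 7.27 of *GFI1-36S* vehicle. The strongest summit there held 147 fragments in *GFI1-36N* vehicle (exact Poisson 95% interval 124 to 173), 176 in *GFI1-36N* curcumin (151 to 204) and 171 in *GFI1-KD* curcumin (146 to 199). *GFI1-36S* vehicle had 64 (49.3 to 81.7), and its interval did not reach those of the other 3. Fragment numbers depend on the depth of each library, and the intervals cover counting error only.

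*Hoxc6* (TSS at 103009573) was covered by a peak of 4722 to 4770 bp in the same 3 libraries. Fold enrichment was 31.6 in *GFI1-36N* vehicle, 29.2 in *GFI1-36N* curcumin and 23.1 in *GFI1-KD* curcumin, with ranks of 94.5, 79.3 and 64.9. In *GFI1-36S* vehicle it was 11.3, with a rank of 21.9 and a summit 1787 bp behind the TSS. *GFI1-36S* curcumin and *GFI1-KD* vehicle again had no peak there. In the 3 libraries with a strong peak, the summits lay 627, 629 and 634 bp behind the TSS, inside the intron whose sequence is given above.

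**Figure D2:**
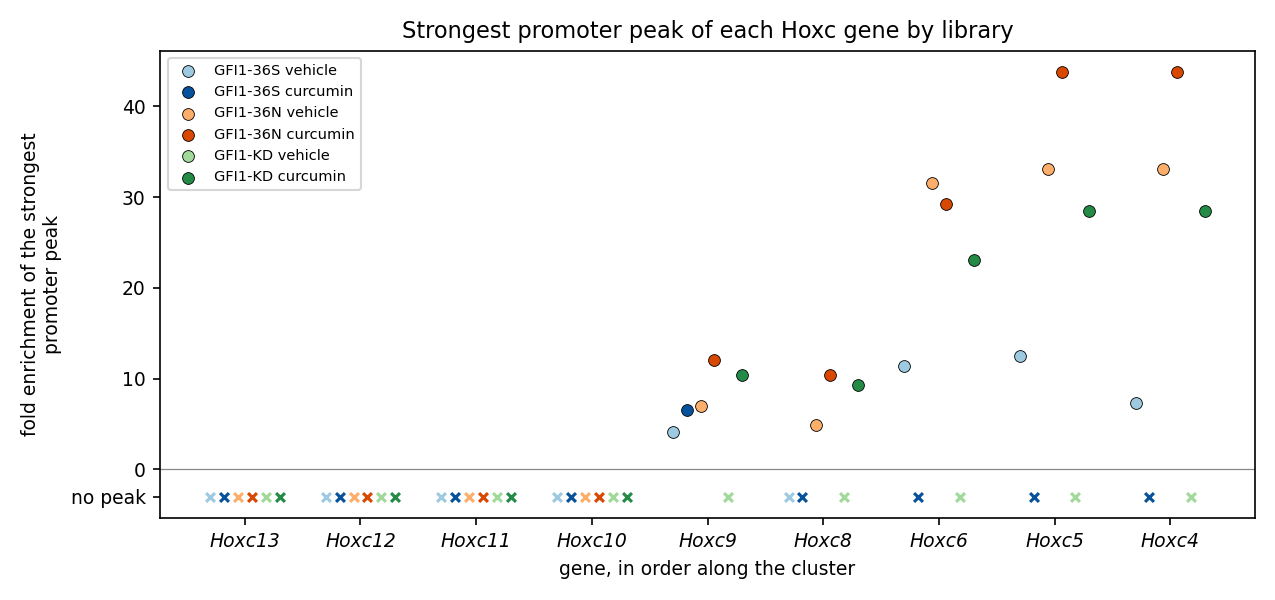
Fold enrichment (y axis) of the strongest promoter peak of each *Hoxc* gene (x axis, in order along the cluster) in each library, with crosses for genes without a peak. *Hoxc4*, *Hoxc5* and *Hoxc6* lie above *Hoxc8* and *Hoxc9* in each library where they have a peak, *Hoxc4* and *Hoxc5* share 1 peak in 3 libraries, and *Hoxc10* to *Hoxc13* have crosses throughout.

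*Hoxc8* (TSS at 102990607) had a weaker promoter peak. Its fold enrichment was 4.89 in *GFI1-36N* vehicle, 10.4 in *GFI1-36N* curcumin and 9.34 in *GFI1-KD* curcumin, and its rank was 8.33, 20.5 and 17.3. The last 2 libraries had 1 merged peak with summits 2096 and 1995 bp behind the TSS, outside the promoter. In *GFI1-36N* vehicle, the summit 1938 bp behind the TSS belonged to a separate peak with a fold enrichment of 9.49, so the values of this gene differ with the splitting of the peaks. In *GFI1-36S* vehicle, a peak lay 1.8 kb behind the TSS and therefore outside the 1 kb window. *Hoxc9* (TSS at 102977032) was the only gene of the cluster with a promoter peak in 5 libraries. Its fold enrichment was 4.11 in *GFI1-36S* vehicle, 6.54 in *GFI1-36S* curcumin, 6.94 in *GFI1-36N* vehicle, 12.1 in *GFI1-36N* curcumin and 10.4 in *GFI1-KD* curcumin. Its ranks ran from 4.71 to 23.6. *GFI1-36S* curcumin hence had a peak at the gene at the posterior edge of the acetylated stretch, where its rank was 13.8 and its summit held 41 fragments (29.4 to 55.6).

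The posterior genes *Hoxc10*, *Hoxc11*, *Hoxc12* and *Hoxc13* had no promoter peak in any library. The nearest peak to the *Hoxc10* start (102966796) was 2.9 kb away in *GFI1-36N* curcumin, where it had a fold enrichment of 2.69 and 17 fragments, and 9.7 to 10.3 kb away in the 4 other libraries with peaks in the cluster. For *Hoxc13* (102921103), known for its role in hair, the distance was 42.4 kb or more. The stretch from *Hoxc13* to 1 kb before *Hoxc9* measured 54929 bp, of which 346 bp (0.630%) were under a peak of any library, compared with 42190 bp (69.4%) of the 60821 bp from there to the end of *Hoxc4*. The edge of the mark therefore lay at the *Hoxc9* promoter in every library with peaks, apart from that single weak peak.

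The posterior promoters were the richer in CpG. Within 1 kb on each side of the start, the sequence held 134 CpG at *Hoxc13*, 101 at *Hoxc12*, 102 at *Hoxc11* and 88 at *Hoxc10*. It held 89 at *Hoxc9*, 77 at *Hoxc8*, 44 at *Hoxc6*, 61 at *Hoxc5* and 23 and 60 at the starts of *Hoxc4*. The median over 21938 coding genes was 63. *Hoxc13* had more CpG than 89.7% of coding promoters and the first start of *Hoxc4* more than 24.4%. Bases under a peak of any library had 2.35 CpG per 100, against 2.03 in the rest of the cluster, and 50.2% against 48.4% G and C.

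**Figure D3:**
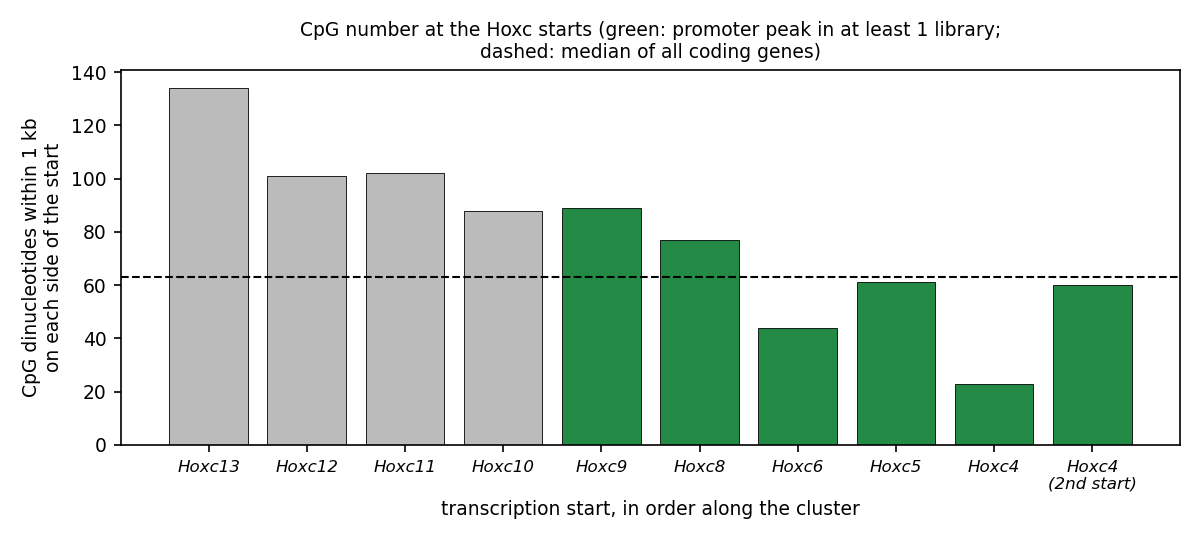
Number of CpG within 1 kb on each side of each *Hoxc* start (y axis), in order along the cluster (x axis), with promoters that had a peak in at least 1 library in green and the median of coding genes, 63, as a dashed line. The 4 grey bars without a peak hold 88 to 134 CpG, and the green ones 23 to 89.

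Outside the promoters of the basic annotation, the widest peak of the cluster lay between the end of *Hoxc8* and the *Hoxc6* TSS. It overlapped the annotated *Hoxc6* gene (chr15:102998257-103011881) and, with every transcript of the full annotation, a *Hoxc6* promoter. It measured 8.81 kb in *GFI1-36N* vehicle, 9.91 kb in *GFI1-36N* curcumin and 9.28 kb in *GFI1-KD* curcumin, with a fold enrichment of 32.1, 30.0 and 26.8. In *GFI1-36S* vehicle, the peak at this site was 4.3 kb wide and, at 19.4, the strongest of the cluster. The summits held 234 (205 to 266), 200 (173 to 230), 227 (198 to 259) and 162 (138 to 189) fragments in these 4 libraries and lay at 103000741, 103000756, 103000746 and 103000772, in the window shown above. *GFI1-36S* curcumin had only 2 weak peaks in this stretch, with 25 and 36 fragments at summits more than 1 kb away from those of the other libraries.

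**Figure D4:**
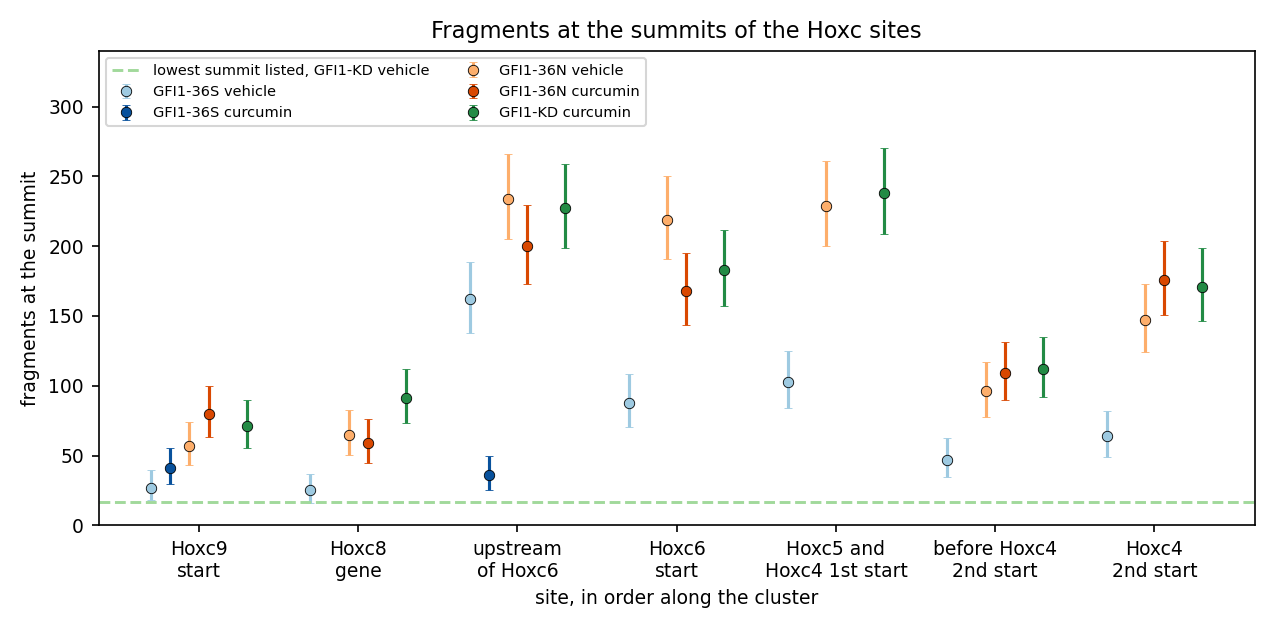
Fragments at the strongest summit (y axis) of the 7 *Hoxc* sites found in 4 or more libraries (x axis), with exact Poisson 95% intervals for counting error. No value could be recovered at *Hoxc5* in *GFI1-36N* curcumin, *GFI1-KD* vehicle has no peak at these sites, and the dashed line marks the lowest summit of its list, 17 fragments.

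Between libraries, the peaks nested in each other. Merged over all lists, the cluster had 19 sites, 4 of them in 1 library, 5 in 2, 3 in 3, 5 in 4, 2 in 5 and 0 in 6. All 17312 bp covered in *GFI1-36S* vehicle were also covered in *GFI1-36N* vehicle, *GFI1-36N* curcumin and *GFI1-KD* curcumin, where they made up 52.2%, 42.1% and 46.6% of the covered bases. The same was found for the 1424 bp of *GFI1-36S* curcumin. *GFI1-36N* curcumin and *GFI1-KD* curcumin shared 36239 bp, 88.1% of the former and 97.5% of the latter. In all, 42536 bp (36.7% of the cluster) were covered in at least 1 library.

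The pairs of vehicle and curcumin libraries differed in the 3 genotypes. In *GFI1-KD* mice, 5 of the 9 *Hoxc* promoters had a peak with curcumin and not with vehicle, where 0.647% of all coding promoters did (142 genes). None of the 9 had one with vehicle alone, against 3.65% of coding promoters. By fold enrichment in *GFI1-KD* curcumin, *Lemd3* was first of these 142 genes, *Hoxc4* and *Hoxc5* followed with 28.4, then *Lin28b*, a regulator of fetal haematopoiesis, with 23.7 and *Hoxc6* with 23.1. In *GFI1-36N* mice, the same 5 promoters had a peak with both treatments, while 3.14% of coding promoters had one with curcumin alone and 1.01% with vehicle alone. The *GFI1-36S* pair ran the other way. There, *Hoxc4*, *Hoxc5* and *Hoxc6* had a peak with vehicle and not with curcumin by the labels, as did 8.58% of all coding promoters, and none of the 9 had one with curcumin alone (1.05%). With the treatments exchanged, as the names of the lists have them, these 3 promoters had a peak with curcumin alone. No difference between genotypes was tested. Lineage marker counts also changed in all 3 pairs, and their part was not tested. From vehicle to curcumin, neutrophil promoters with a peak went from 12 to 7 in *GFI1-KD*, 12 to 0 in *GFI1-36S* and 10 to 10 in *GFI1-36N*. Erythroid ones went from 9 to 4, 9 to 2 and 7 to 5 in the same order. Progenitor ones went from 9 to 10, 8 to 1 and 10 to 8, and T-cell ones from 4 to 4, 8 to 14 and 9 to 7.

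Among vehicle libraries, *Hoxc* promoters had peaks in *GFI1-36N* and *GFI1-36S* but not in *GFI1-KD* mice. The number with a peak in *GFI1-36N* and not in *GFI1-KD* was 5 of 9 (1.29% of coding promoters), and in *GFI1-36S* and not in *GFI1-KD* it was 4 of 9 (1.15%). Between *GFI1-36N* and *GFI1-36S*, 1 promoter, *Hoxc8*, differed (1.62%). With curcumin, 4 of the 9 were marked in *GFI1-36N* and not in *GFI1-36S* (10.2%) and 4 in *GFI1-KD* and not in *GFI1-36S* (7.65%). *GFI1-36N* and *GFI1-KD* did not differ with curcumin at any of the 9, while 3.84% of coding promoters had a peak in the former alone and 0.675% in the latter alone. The remaining directions also gave 0 of 9. Their background was 1.82% for *GFI1-36S* and not *GFI1-36N* vehicle, 2.92% for *GFI1-KD* and not *GFI1-36S* vehicle, 3.27% for *GFI1-KD* and not *GFI1-36N* vehicle, 0.789% for *GFI1-36S* and not *GFI1-36N* curcumin and 1.36% for *GFI1-36S* and not *GFI1-KD* curcumin. With the *GFI1-36S* treatments exchanged, 1 promoter had a peak in *GFI1-36S* and not in *GFI1-KD* vehicle, and 4 had one in *GFI1-36N* and not in *GFI1-36S* vehicle. With curcumin, 1 then had a peak in *GFI1-36N* and not in *GFI1-36S*, and 1 in *GFI1-KD* and not in *GFI1-36S*.

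The pattern of *Hoxc4*, *Hoxc5* and *Hoxc6*, a peak in 4 libraries but not in *GFI1-36S* curcumin and *GFI1-KD* vehicle, was shared by 34 coding genes, themselves included (0.155%). Ordered by their mean rank where called, the first 5 were *Hoxc5* (75.6), *Hoxc4* (72.7), *Mab21l2* (66.3), *Hoxc6* (65.2) and *Lin28b* (52.5). *Hoxb8*, *Hoxb6* and *Hoxb7* were also among them, with mean ranks of 17.7, 17.7 and 16.8. The *Hoxc8* pattern was found at 19 genes and the *Hoxc9* pattern at 14, whereas 9381 genes (42.8%), *Hoxc10* to *Hoxc13* included, had no promoter peak in any library.

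The other *Hox* clusters are given for comparison. *Hoxa* was covered to 27.7% in *GFI1-36S* vehicle, 1.53% in *GFI1-36S* curcumin, 25.5% in *GFI1-36N* vehicle, 23.2% in *GFI1-36N* curcumin, 7.99% in *GFI1-KD* vehicle and 25.9% in *GFI1-KD* curcumin. *Hoxa9*, a driver of myeloid leukaemia, still had a promoter peak in *GFI1-KD* vehicle, with a fold enrichment of 6.17 and a rank of 11.0, compared with 41.9 and 99.2 in *GFI1-KD* curcumin. *Hoxb* was covered to between 1.91% and 15.1%, with 3.80% in *GFI1-KD* vehicle, and *Hoxb4*, a stem cell regulator, was called in all 6 lists. Some peak numbers were missing over *Hoxb*, 2 to 4 in each list, so its coverage may be understated. *Hoxd* had no promoter peak in any library and at most 1.05% of its bases under peaks, with 1 peak of 414 bp in *GFI1-KD* vehicle. The low values of *GFI1-36S* curcumin hence applied to *Hoxa*, *Hoxb* and *Hoxc* alike. *GFI1-KD* vehicle was also low over *Hoxa* and *Hoxb*, where only *GFI1-36S* curcumin had a smaller share covered. Its 14 *Hoxa* peaks were at most 1088 bp wide, with a highest fold enrichment of 11.1, against 20528 bp and 41.9 in *GFI1-KD* curcumin. It had 7 peaks over *Hoxb*, 1 over *Hoxd* and 0 over *Hoxc*.

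**Figure D5:**
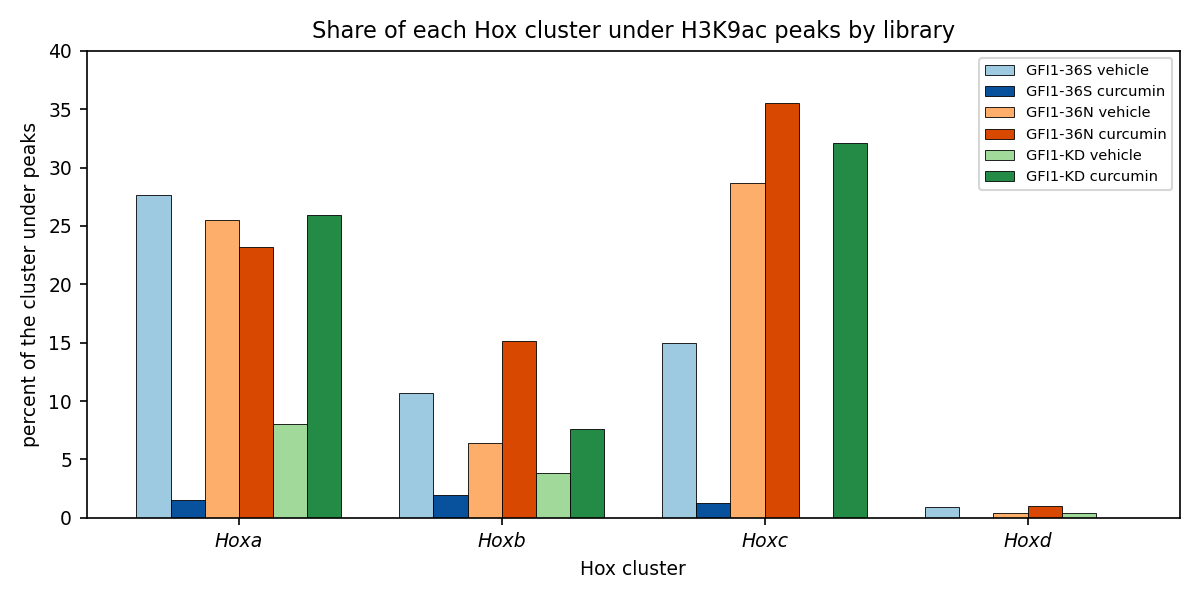
Percent of each *Hox* cluster (x axis) under H3K9ac peaks (y axis) in each library (bars). *Hoxc* has the widest range, from 0 in *GFI1-KD* vehicle to 35.5% in *GFI1-36N* curcumin, and *Hoxd* stays at or below 1.05%.

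The noncoding genes of the cluster followed the edge at *Hoxc9*. The *Mir615* hairpin (chr15:103014910-103015001), inside *Hoxc5*, lay under the *Hoxc5* peak in *GFI1-36S* vehicle, both *GFI1-36N* libraries and *GFI1-KD* curcumin, whose fold enrichment there was 12.5 to 43.8. *Mir196a-2* (chr15:102973350-102973434), between *Hoxc10* and *Hoxc9*, lay 3 to 3.7 kb from the nearest peak in the 5 libraries with peaks. The mature sequences of both from RefSeq (GRCm38.p6) are given to place them, with the seed, bases 2 to 8, in capitals; the seeds differ.
mmu-miR-615-3p: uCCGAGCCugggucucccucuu
mmu-miR-196a-5p: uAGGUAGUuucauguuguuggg
miR-196 is known to target *Hoxb8* and other *Hox* transcripts. *Hotair*, an antisense RNA between *Hoxc12* and *Hoxc11*, was 15.8 kb or more from any peak.

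None of the listed HOX cofactors and other genes linked to *Hox* function had its promoter peaks in the same libraries as *Hoxc4*, *Hoxc5* and *Hoxc6*. Of 11 such genes, 9 or 10 had a promoter peak in each library, where 44.3% to 53.8% of all coding promoters had one. The list held *Meis*, *Pbx* and *Pknox1* cofactor genes together with *Men1*, *Kmt2a*, *Dot1l* and *Nup98*, which are not HOX cofactors. *Pbx3*, a HOX cofactor in leukaemia, had a fold enrichment of 33.8 in *GFI1-36S* vehicle, 9.62 in *GFI1-36S* curcumin, 31.9 in *GFI1-36N* vehicle, 47.9 in *GFI1-36N* curcumin, 21.2 in *GFI1-KD* vehicle and 48.2 in *GFI1-KD* curcumin. Its ranks were 93.1, 30.9, 94.8, 99.8, 48.4 and 99.9 in the same order, lowest in the 2 libraries without *Hoxc4* to *Hoxc6* peaks. No other listed gene with a peak in all 6 libraries had its lowest ranks in these 2. *Pbx2* and *Kmt2a* ranked highest in *GFI1-KD* vehicle, at 67.4 and 72.3. *Meis1* had a peak in *GFI1-36N* vehicle (7.19), *GFI1-KD* vehicle (6.31) and *GFI1-KD* curcumin (7.96). *Kmt2a* and *Men1*, which maintain *Hox* expression, had a peak in all 6 libraries.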

How the data were processed

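H3K9ac ChIP-seq peak lists of 6 libraries were used. Input and IgG controls, 2 samples, were not used. The authors trimmed reads with Trim Galore, mapped them to mm10 with BWA-MEM, called peaks with MACS2 and removed black list regions. Per the file columns, the deposited fold enrichment is a ratio to the local background, and −log10 p, −log10 q and an integer score are the authors' values, not normalised between libraries. The control of each list is not given in the sources used here. Promoters came from the GENCODE M21 basic annotation. Summit fragments were recovered from fold enrichment and p, with a tolerance of 0.002 on −log10 p, for 98.6% to 100% of the peaks of a list, and the scripts were tested on simulated data. Python 3.11.15, pandas 2.3.3, scipy 1.17.1 and pysam were used. Named genes were the 9 *Hoxc* genes, their noncoding genes and neighbours, and leading genes of the other clusters. Cofactors, other genes linked to *Hox* function and genes with the same pattern were also named. A cofactor on the planned list is not reported here. The members and lists were chosen with earlier results of these data known. As alternatives, lists were limited to a −log10 q of 5 or more or to equal numbers of peaks, promoters and ranks were defined in other ways, and *GFI1-36S* treatments were exchanged. The full annotation was added after the data were seen.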

Additional observations from a re-analysis of the deposited data

Results flagged for a closer look

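The change from vehicle to curcumin had opposite signs in 2 genotypes. In *GFI1-KD* mice, covered *Hoxc* bases rose from 0 to 37178, a difference of 37178, and promoters with a peak from 0 to 5. In *GFI1-36S* mice, curcumin minus vehicle was -15888 bases (17312 and 1424) and -3 promoters (4 and 1). With 1 library per group, the difference between genotypes was not tested, and with the *GFI1-36S* treatments exchanged both genotypes would have the same sign. In *GFI1-36N* mice, the bases were 33173 and 41135 and the promoters 5 and 5.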

How the results depend on the processing

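No paired analysis was possible because each group has 1 library and no test was made. Of 165 alternative values, 135 stayed within 1.5 times the reported one or, for percentiles, within its counting interval. The 5 promoters of *GFI1-KD* curcumin stayed within that limit in all alternatives run. The 0 of *GFI1-KD* vehicle could not change and is no check. Its alternatives only removed peaks or moved promoter limits inside its peak-free stretch of 440.6 kb. These fixed values are counted among the 135. Read depth is not in the lists and limits all absent peaks. With the *GFI1-36S* treatments exchanged, the promoters in vehicle alone went from 3 to 0 and in curcumin alone from 0 to 3, those in *GFI1-36N* and not *GFI1-36S* vehicle from 1 to 4, in *GFI1-36S* and not *GFI1-KD* vehicle from 4 to 1, and in *GFI1-36N* or *GFI1-KD* and not *GFI1-36S* curcumin from 4 to 1 each. With equal numbers of peaks, *GFI1-36S* had 1 promoter with curcumin alone, *Hoxc9*, and *GFI1-36N* vehicle 2 beyond *GFI1-36S*. *GFI1-36N* covered 6827 *Hoxb* bases with vehicle, and *Hoxd* bases were 0 in *GFI1-36S* and *GFI1-KD* vehicle and 531 in *GFI1-36N* curcumin. A −log10 q of at least 5 left 475 *Hoxd* bases in *GFI1-36S* vehicle. With 3 kb windows, *GFI1-36N* had 1 promoter with curcumin alone, *Hoxc10*, and 0 beyond *GFI1-36S* with vehicle, where the full annotation also gave 0 and 2 promoters in *GFI1-36S* curcumin. With the summit inside the promoter, 1 promoter was in each *GFI1-36N* library alone and 2 were beyond *GFI1-36S* vehicle. The percentile of the strongest promoter peak (24.8, 13.8, 96.0, 99.2 and 82.4) among all peaks was 78.7 and 53.1 in *GFI1-36S*, 98.95 and 99.8 in *GFI1-36N* and 94.3 in *GFI1-KD* curcumin. By −log10 p it was 31.4 and 15.4 in *GFI1-36S* and 95.4 in *GFI1-KD* curcumin, and with equal numbers of peaks 19.7 in *GFI1-36S* vehicle and 81.6 in *GFI1-KD* curcumin. The causes were not tested.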
